A study of Mus musculus with 4 samples.

Results

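Neural crest and neural plate border genes were examined in whole mouse embryos lacking *Ddx6*, an RNA helicase of mRNA decay and translational repression. The 9 genes were taken by symbol from a table of 24421 genes, and all 9 were found: *Tfap2a*, *Pax3*, *Pax7*, *Foxd3*, *Sox9*, *Ets1*, *Tfap2b*, *Sox10* and *Ednrb*. All embryos were of the ICR strain. Wild-type embryos gave 1 library from embryonic day 7.5, called E7.5 WT, and 1 from embryonic day 8.5, called E8.5 WT. *Ddx6* -/- embryos of day 8.5 gave 2 libraries, replicate 1 (KO1) and replicate 2 (KO2). The null allele came from a floxed line whose exon had been removed by a CAG-Cre deleter, so every tissue of a KO embryo lacked it. According to the study's text, KO libraries pooled embryos: KO1 mixed embryos from before and after head-fold formation, whereas KO2 held embryos from before it alone. How many embryos made up the WT libraries is not given in the sources used here.

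The neural plate border is the strip of ectoderm between the neural plate and the surface ectoderm. Graded BMP, Wnt and FGF signals induce border transcription factors there, such as those of the AP-2 and Pax families. These in turn switch on neural crest specifiers, such as *Foxd3*, *Sox9*, *Ets1* and *Sox10*, in the dorsal neural folds. Crest cells then undergo an epithelial to mesenchymal transition, migrate, and give rise to peripheral neurons and glia, pigment cells and much of the facial skeleton. In the mouse the first cranial crest cells leave the neural folds at about the stage of the E8.5 embryos studied here. Most of these genes are also transcribed in other tissues of the embryo, so that a level in a whole embryo is a sum over them.

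KO1 was the shallowest library, with 8198402 counts, and E8.5 WT the deepest, with 12562640. *Ddx6* itself had 2943 and 5715 reads in the E7.5 and E8.5 WT libraries but only 706 in KO1 and 929 in KO2, a mean log2 change against E8.5 WT of -2.54 ± 0.10 (SD, n = 2). Its adjusted p was 0.196 in the edgeR quasi-likelihood test across all genes and 4.68e-26 in DESeq2. *Prl3d1*, a hormone of trophoblast giant cells, had 4156 reads in KO2 and at most 27 in any other library. Levels are given as reads and as CPM, which expresses reads per mega-read of library after edgeR's TMM scaling. Runs of 4 values are in the order E7.5 WT, E8.5 WT, then KO1, then KO2. A log2 change is a difference of log2 CPM with a prior count of 2. Fold values are ratios of CPM without that prior, with counts under 3 set to 3. At low counts the fold and the log2 change therefore differ. Intervals are 95% intervals of the read counts, exact Clopper-Pearson for a change and exact Poisson for a level, and cover counting error only. A gene was called when its log2 change was above 1 or below -1, and against WT this had to hold in both KO libraries. Each WT stage had 1 library, so calls carry no p-value and WT spread could not be measured.

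All 9 genes had more reads in E8.5 WT than in E7.5 WT, and their summed level was 58.9 CPM at E7.5 and 180 CPM at E8.5. It was 185 CPM in KO1 and 118 CPM in KO2. In these bulk samples fewer cells of a type and less RNA per cell cannot be told apart. Per kilobase of annotated exon, *Ets1* had the highest level in E8.5 WT at 12.3 RPKM, followed by *Sox9* at 9.90 and *Tfap2a* at 8.18. *Foxd3* at 3.57, *Pax3* at 3.35, *Ednrb* at 2.16 and *Pax7* at 1.25 were intermediate. *Sox10* at 0.410 and *Tfap2b* at 0.157 were lowest, with 14 and 12 reads, so the reads of *Sox10*, a defining gene of migrating crest, were few even in WT. All 9 passed the minimum of 10 reads in at least 1 library, but *Sox10* and *Tfap2b* passed through E8.5 WT alone. A call of these 2 genes as lower than E8.5 WT was therefore partly built into the filter, and counts are given with and without them.

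**Figure D1:**
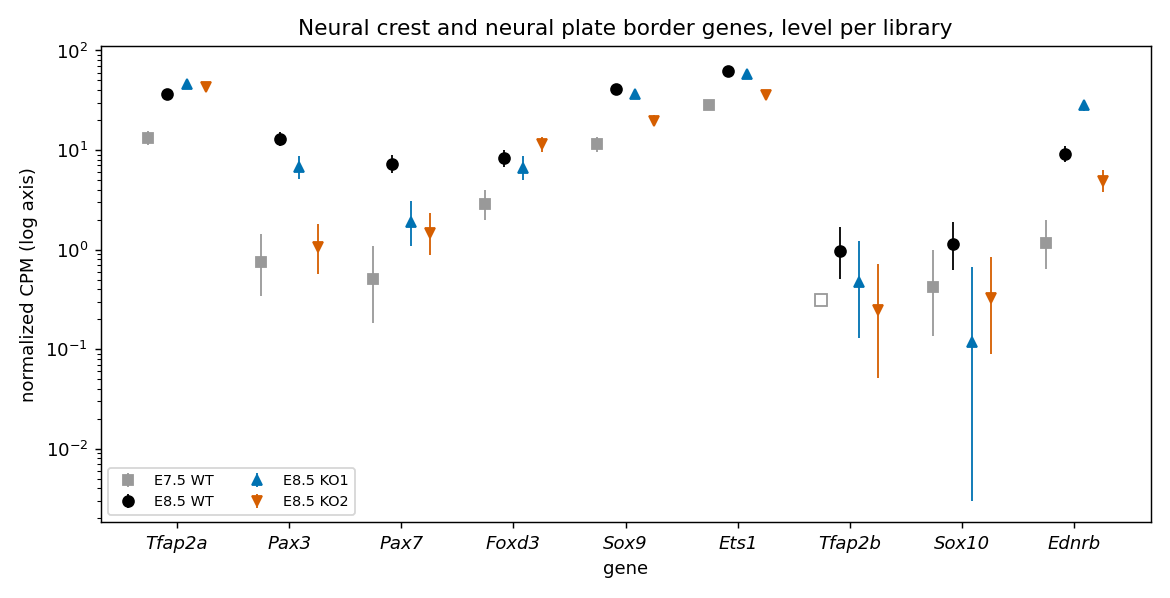
Normalized CPM (log axis) of the 9 genes in the 4 libraries; bars are exact Poisson 95% intervals of the read count and the open square is the upper limit for *Tfap2b* in E7.5 WT, which had 0 reads. *Pax7* lies low in both KO libraries, *Pax3* mainly in KO2, and *Ednrb* is highest in KO1.

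Between the wild-type stages, the level in E7.5 WT was below that in E8.5 WT by more than 1 on the log2 scale for 9 of 9 genes, where 12.2% of all 14393 genes tested were. Without *Sox10* and *Tfap2b* it was 7 of 7, and 0 genes were higher in E7.5 WT (7.82% of all genes). The median rise from E7.5 WT to E8.5 WT was 1.82 over the 9 genes and -0.02 over all genes tested. *Pax3* and *Pax7* rose most, by 3.81 and 3.46 on the log2 scale, and by 17.1-fold and 14.5-fold as CPM ratios without the prior count. *Ets1* rose least, by 1.13, which was 2.20-fold. *Tfap2b* had 0 reads in E7.5 WT, and its E8.5 WT level was 3.87-fold above a floor of 3 reads there. The counting interval of this rise began at 1.43 on the log2 scale. The rise of *Sox10* by 1.14 was within counting error, with an interval from -0.12 to 3.27.

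The main comparison asked how these genes stood in KO embryos against WT embryos of the same embryonic day. The paper describes E8.5 KO embryos as developmentally delayed, so genotype and stage cannot be told apart in this comparison. *Pax7* and *Sox10* were called lower in both KO libraries, 2 of 9 genes where 1.79% of all genes were, and 0 were called higher (3.44% of all genes). Without *Sox10* and *Tfap2b* it was 1 of 7. For *Foxd3* and *Ednrb* the KO libraries differed more from each other than either did from E8.5 WT. In KO1 alone 2 genes were lower (*Pax7* and *Sox10*, or 1 of 7 without the sparsely counted pair, background 3.31%) and 1 was higher (*Ednrb*, background 4.97%). In KO2 alone 5 genes were lower (*Pax3*, *Pax7*, *Sox9*, *Tfap2b* and *Sox10*, background 5.91%) and 0 were higher (background 9.41%), or 3 of 7 lower without that pair. The 9 genes changed by a median of -0.31 in KO1 and by one of -1.04 in KO2, which average -0.68 ± 0.52 (SD, n = 2), where all genes tested had medians of -0.01 and 0.00. Without *Sox10* and *Tfap2b* the medians were -0.15 in KO1 and -0.88 in KO2.

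The edgeR quasi-likelihood test of KO against E8.5 WT, two-sided and adjusted over all 14393 genes, called 0 genes of the table (0%), and took its spread from KO1 and KO2 alone. Without adjustment 1052 genes (7.31%) had a p under 0.05, and of the 9 only *Pax7* was among them. DESeq2 called 31 genes in the table and none of the 9. With both WT libraries as 1 group, edgeR again called 0 genes (0%, although 565 had p under 0.05 before adjustment), and DESeq2 called 32, none of them among the 9. None of the 9 genes passed under any setting tried.

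**Figure D2:**
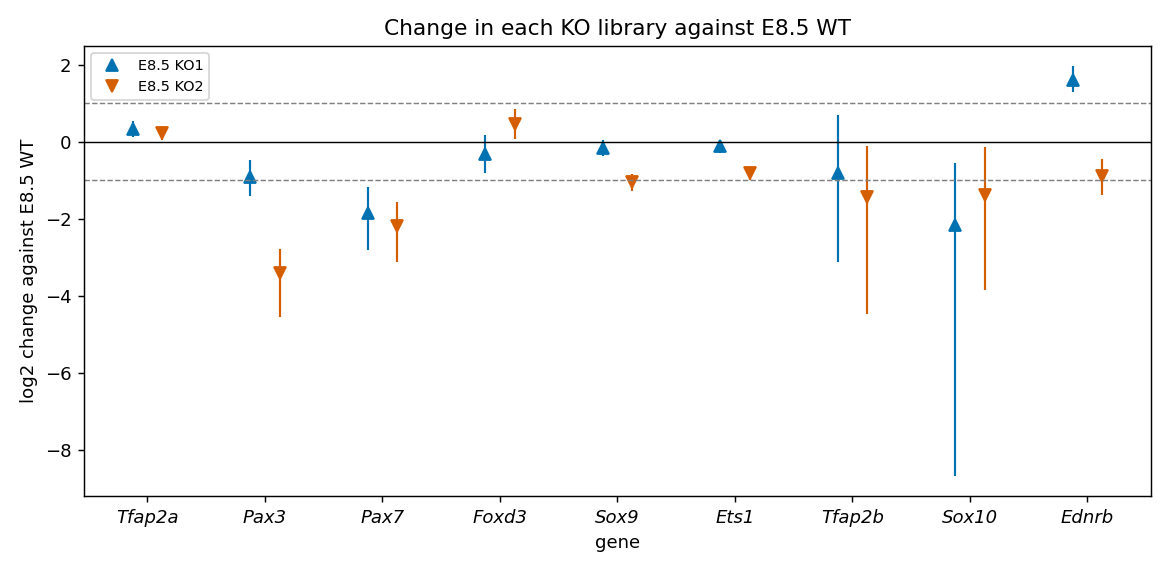
Log2 change of the 9 genes in KO1 and KO2 against E8.5 WT; bars are exact 95% counting intervals and dashed lines mark the call threshold of 1. *Pax7* and *Sox10* lie below the lower line in both KO libraries, *Pax3* and *Ednrb* differ between them, and the bars of *Sox10* and *Tfap2b* are long.

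*Pax3* and *Pax7* are paired-box factors of the neural plate border and dorsal neural tube, and *Pax3* is also transcribed in presomitic mesoderm and somites. *Pax7* (chromosome 4, 139737062 to 139833528, minus strand, GRCm38) had 6 reads at E7.5 and 90 at E8.5 in WT embryos, against 16 in KO1 and 18 in KO2. Both KO libraries were thus far below E8.5 WT and close to each other, and both lay above E7.5 WT. KO1 was 3.84-fold below E8.5 WT, with a 95% interval on the log2 scale of -2.81 to -1.17. In KO2 it was 4.96-fold lower (-3.13 to -1.57). The mean log2 change was -2.01 ± 0.23 (SD, n = 2), lower in 2 of 2 KO libraries. The edgeR test with Benjamini-Hochberg adjustment across all genes gave *Pax7* an adjusted p of 0.666. Over the alternative settings the adjusted p of *Pax7* ranged from 0.451 to 1. Of 7 neural plate markers, *Sox1* and *Pax6* were also lower in both KO libraries by more than 1 (background 1.79%). *Pax6*, a paired-box factor of the neural plate, had 10, 180, 31 and 14 reads and was 3.97-fold lower than E8.5 WT in KO1. *Sox3*, *Nkx6-1* and *Sox2* were also below E8.5 WT in both, though not called. Their changes in KO1 and KO2 were -0.64 and -1.62, -0.80 and -2.49, and -0.93 and -0.16. The list medians were -0.80 in KO1 and -1.62 in KO2. *Otx2*, of the anterior neural plate, went otherwise, 2.95-fold higher than E8.5 WT in KO2 and near it in KO1 (a log2 change of 0.09). *Cdh2* changed by -0.04 and 0.21. The list summed to 224, 402, 294 and 421 CPM, with *Otx2* giving 169 of the KO2 sum and no marker at 0, and its part in the *Pax7* values was not tested.

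*Pax3* (chromosome 1, 78101267 to 78197134, minus strand) behaved differently in the 2 KO libraries. It had 9 reads at E7.5 and 159 at E8.5 in WT embryos, against 57 in KO1 and 13 in KO2. KO1 thus held an intermediate level of 6.79 CPM, whereas KO2 at 1.07 CPM was near the 0.757 CPM of E7.5 WT. The log2 change against E8.5 WT was -0.91 in KO1 (-1.39 to -0.49), just inside the threshold, and -3.40 in KO2 (-4.54 to -2.78). As a CPM ratio without the prior count, *Pax3* was 12.1-fold lower in KO2. Between the KO libraries, *Pax3* was 6.36-fold lower in KO2, whereas for *Pax7* the interval of that difference, -1.42 to 0.70, included 0. Paraxial mesoderm markers were also low in KO2. The list (*Meox1*, *Tbx6*, *Tcf15*, *Msgn1*, *Foxc2* and *Uncx*) summed to 63.1, 113, 95.5 and 21.4 CPM, so that its KO2 sum was below that of E7.5 WT, unlike *Pax3*. All 6 were lower in KO2 than in E8.5 WT by more than 1 (background 5.91%). However, *Uncx* passed the count minimum through E8.5 WT alone and its interval (-3.30 to 0.08) included 0. Single markers differed in the other libraries, with *Tbx6* at 29.5, 17.7, 25.6 and 7.47 CPM, and *Msgn1* at 11.8 CPM in KO1 against 10.3 in E8.5 WT. No marker of the list was at 0 in any library, and its part in the *Pax3* values was not tested.

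*Tfap2a*, the AP-2 factor that acts early at the border and is also strongly transcribed in surface ectoderm, did not follow the Pax genes. *Tfap2a* (chromosome 13, 40715302 to 40738376, minus strand) had 157 reads at E7.5 and 451 at E8.5 in WT embryos, against 389 in KO1 and 521 in KO2. After normalization the KO levels, 46.3 and 42.8 CPM, were both above the 36.7 CPM of E8.5 WT and the 13.2 CPM of E7.5 WT. The changes against E8.5 WT were small, 0.33 (0.14 to 0.53) in KO1 and 0.22 (0.04 to 0.41) in KO2, with a mean of 0.28 ± 0.08 (SD, n = 2), and did not reach the threshold. The edgeR adjusted p was 0.686. Surface ectoderm markers summed to 711, 357, 511 and 775 CPM, mostly from the epithelial genes *Cdh1* and *Epcam*. The defining epidermal gene *Trp63* had 0, 8, 9 and 0 reads, *Krt5* had 0, 21, 6 and 0, and *Krt14* at most 5 in any library. Extraembryonic ectoderm and trophoblast markers, a tissue that also uses AP-2 factors, summed to 415, 308, 522 and 707 CPM, with none at 0. *Hand1* gave 422 CPM of the KO1 sum, against 181 CPM in E8.5 WT, and *Hand1* and *Prl3d1* gave 330.5 and 341 CPM of that of KO2. *Ascl2* had 358, 10, 11 and 54 reads and *Prl3d1* 27, 1, 3 and 4156, so both were few in KO1 as in E8.5 WT. *Cdx2* went the other way, with 108 CPM in E8.5 WT and 12.3 in KO2, and *Elf5*, at 66.8 CPM in E7.5 WT, was below 1 CPM in the other 3 libraries. The part of either list in the *Tfap2a* values was not tested. Antisense genes overlap *Tfap2a* and *Ets1*, but reads were counted by strand.

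*Foxd3*, a forkhead factor of premigratory crest that is also transcribed in the epiblast, was the gene with the highest change in KO2. *Foxd3* (chromosome 4, 99656299 to 99658622, plus strand) had 34 reads at E7.5 and 102 at E8.5 in WT embryos, against 56 in KO1 and 139 in KO2. KO1 fell between the WT stages and KO2 was above both. The changes against E8.5 WT had opposite signs, -0.31 (-0.81 to 0.17) in KO1 and 0.45 (0.08 to 0.84) in KO2, and neither was past the threshold. KO2 was 1.71-fold higher than KO1. Epiblast markers (*Pou5f1*, *Nanog*, *Fgf5*, *Utf1*, *Dnmt3b* and *Tdgf1*) summed to 2063, 524, 712 and 3056 CPM. All 6 were higher in KO2 than in E8.5 WT by more than 1 (background 9.41%). None was at 0 in any library. *Foxd3* stood at 2.86, 8.30, 6.67 and 11.4 CPM, lowest in E7.5 WT and highest in KO2. The part of epiblast cells in the *Foxd3* values was not tested.

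*Ednrb*, the endothelin receptor that migrating crest cells and their melanocyte and enteric descendants need, lay above E8.5 WT in KO1 and below it in KO2. *Ednrb* (chromosome 14, 103814625 to 103844402, minus strand) had 14 reads at E7.5 and 113 at E8.5 in WT embryos, against 237 in KO1 and 60 in KO2. KO1 was above both WT stages, and KO2 lay between them. Against E8.5 WT the level was 3.07-fold higher in KO1, a log2 change of 1.60 (1.29 to 1.95), and 1.87-fold lower in KO2, a change of -0.88 (-1.38 to -0.44). The mean of 0.36 ± 1.75 (SD, n = 2) describes neither library. *Ednrb* was 5.73-fold lower in KO2 than in KO1, and the edgeR adjusted p against E8.5 WT was 0.821.

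RefSeq promoter windows (GRCm38.p6) were found for 5 of the 9 genes, *Tfap2a*, *Pax7*, *Foxd3*, *Tfap2b* and *Ednrb*. Those of *Foxd3* and *Ednrb* are shown because these genes had opposite signs of change in the 2 KO libraries. Their windows also overlap no annotated exon of the 9 genes, and exons of other genes were not checked. The *Ednrb* window lies inside the annotated span of that gene (103814625 to 103844402), downstream of its furthest annotated 5′ end. Each sequence runs 5′ to 3′ over the 250 bases before the RefSeq start, and capitals mark a match to the AP-2 consensus GCCNNNGGC.
Foxd3, chr4:99656049-99656298, plus strand: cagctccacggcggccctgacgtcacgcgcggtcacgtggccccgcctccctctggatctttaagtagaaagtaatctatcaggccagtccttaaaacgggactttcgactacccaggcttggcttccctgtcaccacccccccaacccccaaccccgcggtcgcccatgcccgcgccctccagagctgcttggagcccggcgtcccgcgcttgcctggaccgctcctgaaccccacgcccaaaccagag
Ednrb, chr14:103843702-103843951, minus strand: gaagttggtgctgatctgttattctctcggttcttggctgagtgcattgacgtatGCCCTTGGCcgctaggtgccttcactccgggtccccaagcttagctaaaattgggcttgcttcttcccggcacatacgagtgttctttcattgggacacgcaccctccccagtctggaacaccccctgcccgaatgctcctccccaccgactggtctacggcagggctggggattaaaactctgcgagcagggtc
Both strands of the 6 windows (2 for *Tfap2a*) were searched for 5 motifs: AP-2 (GCCNNNGGC), SOX (ACAATG), BMP SMAD (GGCGCC), TCF/LEF (CTTTGA) and the Snail E-box (CAGGTG). Of 32851 promoter windows of this length, 13.7%, 10.7%, 9.59%, 13.8% and 17.2% held these in the same order. The only match in the 6 windows, which no other match overlapped, was the AP-2 motif of *Ednrb*, whose first base is at position -195 from the start.

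*Sox9* and *Ets1* are crest specifiers with the most reads among the 9 genes beside *Tfap2a*, and they changed alike. *Sox9* (chromosome 11, 112782224 to 112787760, plus strand), an SRY-box factor also used in notochord, gut and otic tissue, had 136 reads at E7.5 and 503 at E8.5 in WT embryos, against 309 in KO1 and 241 in KO2. *Ets1* (chromosome 9, 32636221 to 32757820, plus strand), an ETS factor of cranial crest and of endothelium, had 340, 771, 485 and 435 reads in the same order. For both genes KO1 was near E8.5 WT and KO2 was lower, with every KO level between the WT stages. The log2 change of *Sox9* was -0.15 (-0.36 to 0.05) in KO1 and -1.04 (-1.28 to -0.82) in KO2, with an edgeR adjusted p of 0.717. The change of *Ets1* was -0.12 (-0.29 to 0.05) in KO1 and -0.81 (-0.99 to -0.64) in KO2, with an edgeR adjusted p of 0.713. Endothelial markers, 8 genes of which none was at 0, summed to 99.9, 399, 365 and 256 CPM, the same order of libraries as *Ets1* and *Sox9*. *Kdr* gave 184 CPM of the E8.5 WT sum, and as single genes only *Kdr* and *Erg* followed that order. Within the list *Cdh5* was highest in KO2, at 98.6 CPM against 56.1 in E8.5 WT, and *Pecam1* was at 24.8 CPM in KO2 against 24.6 in E8.5 WT. *Tek* was highest in KO1, at 70.3 CPM against 51.2 in E8.5 WT, and *Tie1*, *Etv2* and *Fli1* were lowest in KO2. Notochord and gut endoderm markers summed to 431, 150, 192 and 233 CPM, beside 11.4, 40.9, 36.8 and 19.8 CPM for *Sox9*. *T* gave 325 CPM of that E7.5 WT sum, while *Shh*, at 0.841, 16.3, 19.3 and 2.30 CPM, was low in E7.5 WT and in KO2. The part of these tissues in either gene was not tested.

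*Tfap2b* and *Sox10* mark later crest, and their reads were too few for the sizes to be fixed. *Sox10* (chromosome 15, 79154908 to 79165240, minus strand), the SRY-box factor of migrating crest and glia, had 5 reads at E7.5 and 14 at E8.5 in WT embryos, against 1 in KO1 and 4 in KO2. Its log2 change against E8.5 WT was -2.15 in KO1 (-8.66 to -0.54) and -1.38 in KO2 (-3.86 to -0.12), so both intervals lay below 0 but allow a small or a large decrease. The mean was -1.76 ± 0.54 (SD, n = 2), and the edgeR adjusted p was 0.666. Both KO libraries were below E7.5 WT as well, by amounts within counting error (-7.38 to 1.34 and -2.69 to 1.86). *Tfap2b* (chromosome 1, 19208914 to 19238576, plus strand), an AP-2 factor of crest and its derivatives, had 0, 12, 4 and 3 reads. Its change against E8.5 WT was -0.82 in KO1 (-3.12 to 0.69) and -1.44 in KO2 (-4.45 to -0.10), and a difference in KO1 was not detectable at this depth.

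The KO libraries were then set against the earlier wild-type stage. Against E7.5 WT, 5 of the 9 genes were higher in both KO libraries (*Tfap2a*, *Pax7*, *Foxd3*, *Tfap2b* and *Ednrb*), where 6.91% of all genes were, and 0 were lower (2.70% of all genes). Without *Sox10* and *Tfap2b* it was 4 of 7. Of these, *Tfap2b* had the lowest level, with 0 reads in E7.5 WT and at most 4 in the KO libraries, and the intervals of its changes reached below 0. The medians of the 9 genes against E7.5 WT were 1.67 in KO1 and 1.25 in KO2, beside 0.02 and 0.07 over all genes. *Ednrb* was 24.0-fold higher in KO1, the highest of the 9 there, and 4.18-fold higher in KO2. *Foxd3* was 3.99-fold higher than E7.5 WT in KO2, with a log2 change of 1.93 beside 1.91 for *Ednrb*. *Pax3* was 8.97-fold higher in KO1, but in KO2 its change of 0.41 was within counting error, with a lower bound of -0.84. *Ets1* was 1.01 higher in KO1 and 0.32 higher in KO2. Differences from E7.5 WT share that library, as those above share E8.5 WT.

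**Figure D3:**
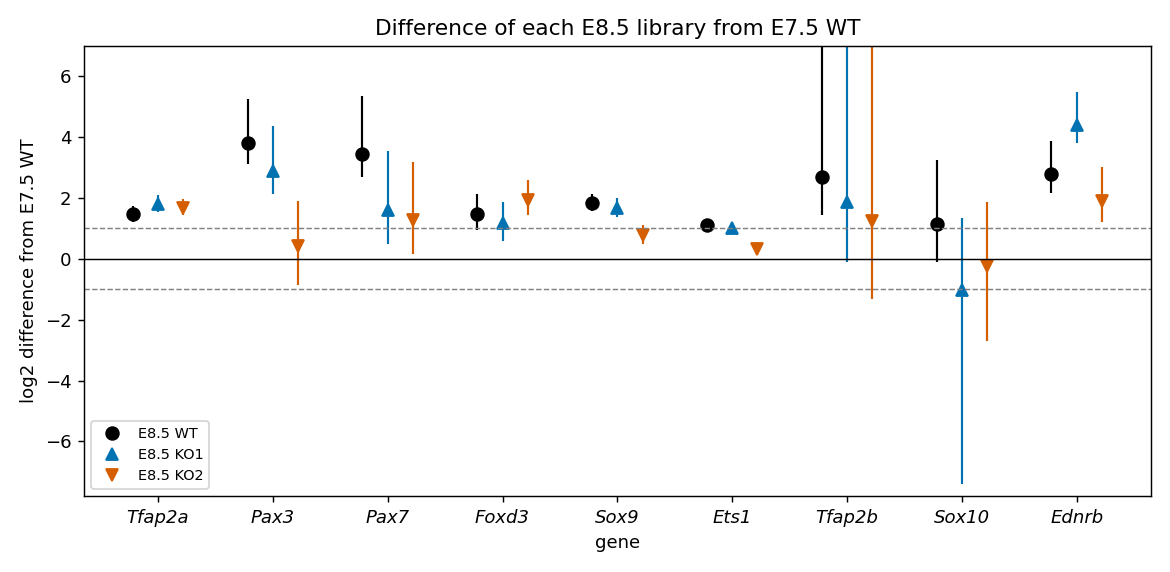
Log2 difference of E8.5 WT, KO1 and KO2 from E7.5 WT for the 9 genes; bars are exact 95% counting intervals, cut at the upper edge for *Tfap2b*, which had 0 reads in E7.5 WT. *Pax3* and *Ets1* in KO2 and *Sox10* in both KO libraries lie near or below 0. The points of *Tfap2a*, *Pax7*, *Foxd3*, *Tfap2b* and *Ednrb* lie above 1 in all 3 E8.5 libraries.

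The KO libraries were also compared with each other. KO2 was lower than KO1 by more than 1 for *Pax3* and *Ednrb*, 2 of 9 genes and 2 of the 7 (background 4.89%), and higher for 0 (background 5.99%). *Sox9* and *Ets1* were lower in KO2 by 0.89 (interval of the log2 difference -1.14 to -0.65) and 0.69 (-0.88 to -0.50), inside the threshold. For *Tfap2a*, *Pax7*, *Tfap2b* and *Sox10* the interval included 0.

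Other genes of the neural plate border and crest program were taken from 5 lists, in which 10, 16, 12, 4 and 8 genes passed the count minimum. Of these, 2 were called lower in both KO libraries, among them *Ngfr* (background 1.79%), and 0 were called higher (background 3.44%). *Ngfr*, a neurotrophin receptor used to mark crest cells, had 66, 317, 86 and 26 reads. It was 2.52-fold lower than E8.5 WT in KO1 and 12.1-fold lower in KO2, where it was also 2.60-fold below E7.5 WT. *Ngfr* belongs to the list of migratory crest and derivative genes, of which 12 of 15 passed the count minimum. The medians of this list were -0.02 in KO1 and -0.82 in KO2, with 2 and 5 genes lower and 1 higher in each. Over all genes tested, 3.31% were lower and 4.97% higher in KO1, and 5.91% were lower and 9.41% higher in KO2. *Nrp1*, a semaphorin receptor, was the gene higher in KO1, by 1.08, and *Mitf*, a pigment cell factor, the gene higher in KO2, by 1.01. *Prrx1*, a factor of cranial and limb mesenchyme, had 25, 302, 140 and 26 reads, and *Crabp1* 298, 1346, 743 and 315. Both were past the threshold in KO2 alone, by -3.42 and -2.08.

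The other neural plate border genes, 10 of 11 past the minimum, had a median change of 0.37 in KO1 and of 0.21 in KO2, and 0 were called in KO1. In KO2 *Gbx2* and *Dlx3* were lower (2 of 10, background 5.91%), and *Zic2*, *Zic5* and *Tfap2c* higher (3 of 10, background 9.41%). *Gbx2*, a homeobox factor of the border and anterior hindbrain, had 230, 515, 273 and 47 reads and was 10.9-fold lower in KO2 than in E8.5 WT. *Zic2* had 1338, 778, 460 and 2130 reads, and *Tfap2c*, the third AP-2 gene measured and also a trophoblast factor, had 879, 123, 118 and 334. The BMP-responsive homeobox genes *Msx1* and *Msx2* stayed inside the threshold, at 0.42 and 0.51 in KO1 and -0.60 and 0.10 in KO2.

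Genes of crest specification and delamination, 16 of 16 past the minimum, had medians of 0.04 and -0.26. In KO1 only *Myc* was lower (1 of 16, background 3.31%), with a change of -1.22. In KO2 *Twist1*, *Sox5*, *Sox6* and *Id2* were lower (4 of 16, background 5.91%) and *Sox8* was higher (1 of 16, background 9.41%). *Twist1*, a factor of crest and head mesenchyme, had 227, 701, 407 and 126 reads, with changes of -0.23 and -2.44. *Snai2*, which represses cadherins at delamination, had 35, 260, 311 and 147 reads, and its changes of 0.80 in KO1 and -0.80 in KO2 had opposite signs and intervals that excluded 0, as did those of *Ednrb*. *Snai1* had 541, 470, 245 and 517 reads and changed by -0.39 and 0.15.

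Of the endothelin system, 4 of 6 genes passed the minimum, and only *Ednra* in KO2 was past the threshold (1 of 4, background 5.91%). *Ednra*, the partner receptor used by cranial crest, had 23, 247, 189 and 68 reads, changes of 0.16 in KO1 and -1.82 in KO2. The ligand gene *Edn3*, whose product acts on the *Ednrb* receptor, had 27, 32, 18 and 26 reads, with changes of -0.26 and -0.27 that were within counting error. *Ece1*, which cleaves the endothelin precursors, had 654, 2030, 2172 and 1252 reads, with changes of 0.65 and -0.68, so it too was highest in KO1. The medians of the 4 genes were 0.23 and -0.48.

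Among 8 genes of the dorsal neural tube and of inducing signals, the medians were 0.04 in KO1 and -1.03 in KO2. *Wnt1*, a signal of the dorsal midbrain and neural folds, had 0 reads at E7.5 and 71 at E8.5 in WT embryos, against 35 in KO1 and 0 in KO2. Its E8.5 WT level was 23.5-fold above a floor of 3 reads in KO2, and the counting interval of the log2 change in KO2 ended at -4.22, whereas the change in KO1 (-0.45) was within counting error (-1.10 to 0.13). *Wnt3a*, *Wnt6* and *Wnt8a* were lower in KO2 as well (4 of 8 with *Wnt1*, background 5.91%), with changes of -2.36, -1.84 and -1.48. In KO1 *Fgf8* was the only gene past the threshold (1 of 8, background 3.31%), with a change of -1.17, and the changes of *Bmp4* were 0.67 and -0.37.

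**Figure D4:**
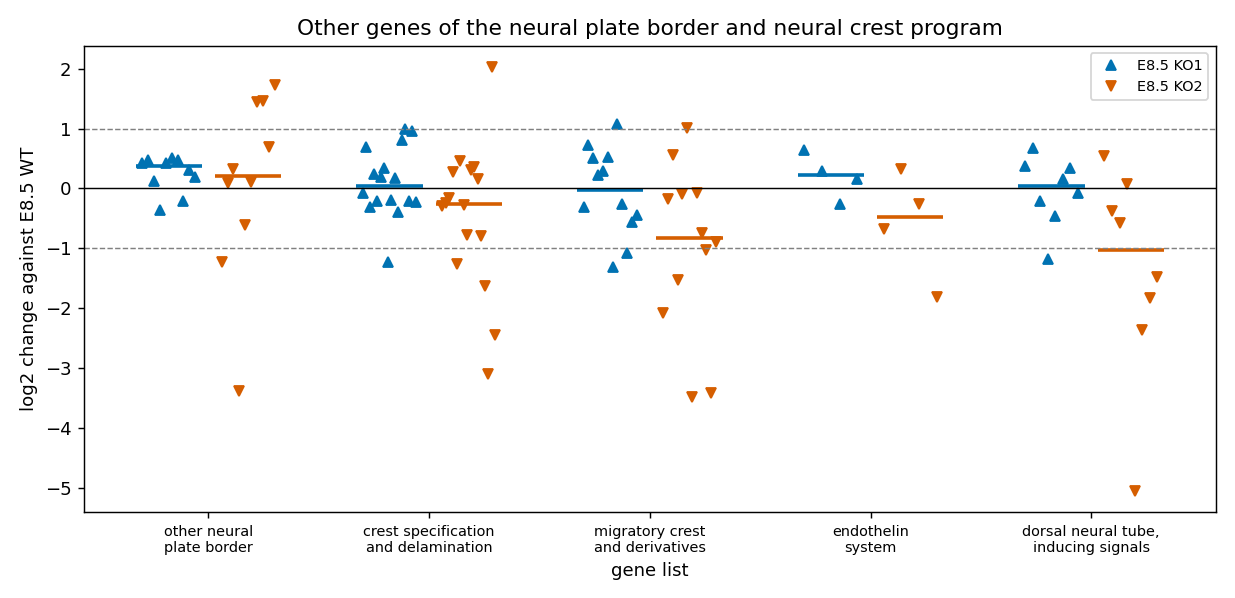
Log2 change against E8.5 WT of each gene past the count minimum in 5 lists of the neural plate border and crest program; short bars are list medians and dashed lines mark the threshold of 1. KO1 values stay mostly within the lines, while KO2 values spread to -5.06 (*Wnt1*, with 0 reads) and 2.03 (*Sox8*).

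**Figure D5:**
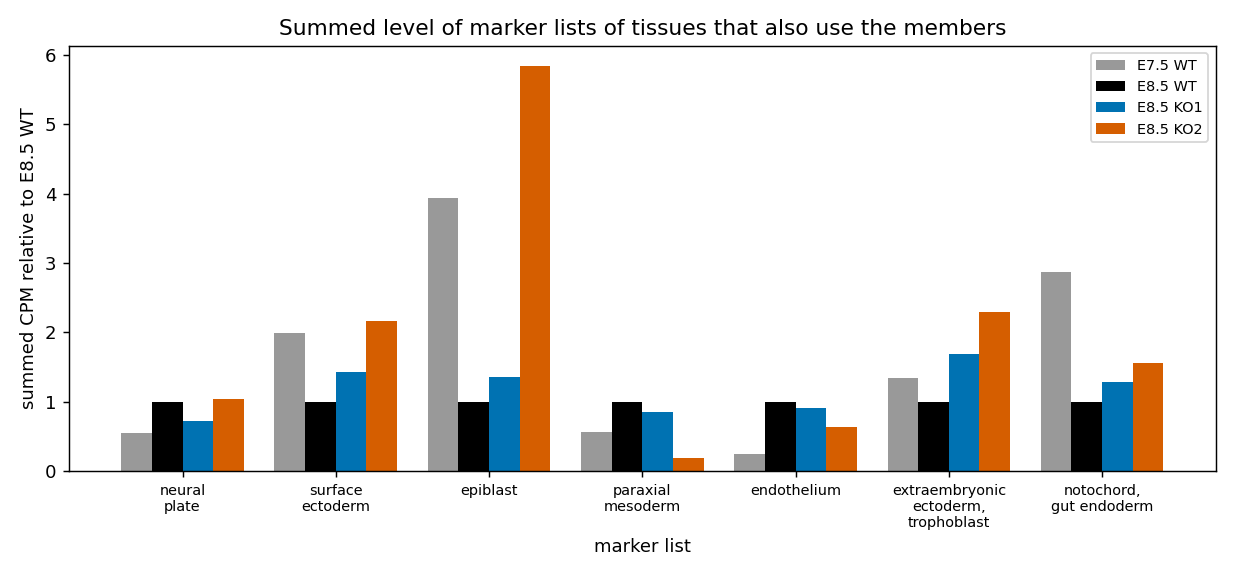
Summed CPM of 7 marker lists of tissues in which the 9 genes are also transcribed, relative to E8.5 WT (set to 1). KO2 is 5.83 times E8.5 WT for epiblast and 0.19 times for paraxial mesoderm, while KO1 lies between 0.731 and 1.69 times for all lists.

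The genes with the patterns most like those of the 9 were found from the distance between their 3 log2 changes against E8.5 WT (in E7.5 WT, KO1 and KO2). Nearest to *Sox9* were *Rps6ka3*, *Ephb2* and *Zeb2*, at distances of 0.0327, 0.154 and 0.157. Nearest to *Ets1* were *Mmp2*, *Tet3* and *Dse*, and nearest to *Tfap2a* were *Cers6*, *Nbea* and *Sesn3*. *Pax3* was nearest to *Ptn*, *Prrx1* and *Osr1*, at 0.499 to 0.539. *Pax7* had no close match other than *Myl4* at 0.507, with *Ildr2* and *Irs4* at 0.952 and 0.975. *Foxd3* was nearest to *Esam*, *Relt* and *Jam3*, and *Ednrb* to *Ccdc80*, *Tnni1* and *Sparcl1*, at 0.484 to 0.579. The distances for *Tfap2b* (nearest *Lhx5*) and *Sox10* (nearest *Vldlr*) rest on 14 or fewer reads per library. These are likenesses over 4 libraries that share E8.5 WT.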

How the data were processed

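RNA of whole embryos was sequenced as stranded mRNA libraries. Per the study's methods, extraembryonic tissue or yolk sac was used for genotyping. How much extraembryonic tissue each library held is not given in the sources used here. The authors deposited unnormalized read counts, 1 column a library. Per the labels and the study's methods, reads were trimmed with Cutadapt 2.8, checked with FastQC 0.11.7, mapped to mm10 with HISAT2 2.1.0, sorted with SAMtools 1.9 and counted over exons by strand with featureCounts 2.0.0. Groups came from the sample titles.

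TMM factors were computed on the whole table in edgeR 4.0.16 (R 4.3.3), and genes reaching 10 counts in any library, 14393 of 24421, were tested. The threshold of 1 is that of the authors' methods. Quasi-likelihood F-tests were fitted in edgeR with 3 groups, and with both WT libraries as 1 group, with Benjamini-Hochberg adjustment across all genes. DESeq2 1.42.0 was the alternative. Nothing says whether the KO libraries came from separate litters, so the spread between them may be partly technical. Tests were tried on simulated data.

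The count floor was 3. Exon lengths and positions came from GENCODE M21 (GRCm38, the assembly of mm10), whose exons may differ from those counted. Genes named are the 9, *Ddx6*, 5 lists of related genes, 7 marker lists, and for each of the 9 the 3 nearest among genes averaging 50 or more counts. Some genes of these lists are not reported here by name. Members, lists and motifs were chosen with earlier results of these data known. Alternatives were other scalings, filters, prior count, threshold and leaving out a KO library. Figures were drawn with matplotlib 3.10.9.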

Additional observations from a re-analysis of the deposited data

How the results depend on the processing

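Across the other settings, 114 values stayed within 1.5 times (counts) or within the SD between the KO libraries (changes), and 22 moved further. With 2 KO libraries, leaving 1 out always moves a mean change by less than that SD. Those values could not move further, so they are no measure of stability. The mean change against E8.5 WT changed sign for *Ednrb*, from 0.36 to -0.88 without KO1, and for *Foxd3*, from 0.07 to -0.31 without KO2. For the 9 genes against E8.5 WT, a minimum of 50 counts left 1 gene lower in both KO libraries (*Pax7*), and a threshold of 2 left 0. Against E7.5 WT a threshold of 2 left 0 genes higher in both, and between the WT stages it left 4 of 9. With a prior count of 0.5, 1 gene was higher in KO2 than in KO1. It was *Sox10*, with 4 reads against 1 and a counting interval of -1.87 to 7.08 that included 0. Counting only genes with 10 reads outside E8.5 WT, an alternative added after the data were seen, left 1 lower. Leaving out a KO library gave 2 to 5 genes lower and 0 to 1 higher than E8.5 WT, and 5 to 8 higher and 0 to 1 lower than E7.5 WT. In the 5 related lists, plain CPM gave 1 lower and 1 higher, a prior count of 0.5 gave 1 higher, a threshold of 2 gave 0 lower, and leaving out a KO library gave 4 to 16 lower and 1 to 5 higher. DESeq2 called 31 genes of the table against E8.5 WT and 32 against both WT libraries, and edgeR without a filter called 8 against E8.5 WT. Against both WT libraries edgeR called 1 to 62 without a KO library, the lone KO library being assumed to vary like the WT libraries, whereas against E8.5 WT no residual degree of freedom was left for such a test. None of these calls was one of the 9 genes, and the causes were not tested. No paired analysis was possible because only the KO libraries carry replicate numbers. Depth limits *Sox10* and *Tfap2b* most, with 0 to 14 reads per library.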
